A study of Caenorhabditis elegans with 15 samples.

Results

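The genes described here are 7 of the 18542 Caenorhabditis elegans genes with a probe on the arrays, F41F3.3, cat-4, W02G9.4, W01C9.1, F36H9.2, 2L52.1 and kpc-1, that were chosen by their array ratios because these differed between worms kept in Elbe sediment and worms kept in Rhine sediment. They were found on the arrays by sequence name without the final isoform letter, which gave 8 of the 19084 probes, since kpc-1 (sequence name F11A6.1) had the probes F11A6.1a and F11A6.1b. Of these 8 probes, 7 were among the 5347 probes that passed a filter on spot quality, and F11A6.1b was not. The Elbe to Rhine ratio chose the members, so their Elbe minus Rhine values are given below as a description without a test.

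Wild-type N2 (Bristol) worms, fourth-stage larvae and young adults taken as whole animals, were exposed for 48 h to sediment of the river Danube, Elbe or Rhine, which the study describes as low, high and moderate in contamination, with E. coli as food. Each of the 5 replicates of a sediment was a separate exposure pooled from 24 vials, each of which held 20000 worms on 0.5 g of wet sediment, and all replicates of a river may have been drawn from the same collected sediment. Danube worms were the comparison group of the study, and no array of worms without sediment was used here. Each of the 15 arrays carried Cy5-labelled cDNA of the exposed worms and Cy3-labelled cDNA of a universal worm reference, so the measured level is log2(Cy5/Cy3), the abundance relative to that reference.

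Among the members, cat-4 and kpc-1 have well-known roles. cat-4 encodes GTP cyclohydrolase I, which starts the synthesis of tetrahydrobiopterin, the cofactor that phenylalanine, tyrosine and tryptophan hydroxylases need, and worms without it are short of dopamine and serotonin. kpc-1 encodes a furin-like proprotein convertase, a protease that cuts secreted and membrane proteins at basic residues and is needed for the branching of sensory dendrites. The other 5 genes are annotated as protein coding, and the files and the annotation used here give them no name beyond their sequence name. F41F3.3, cat-4, W02G9.4 and F36H9.2 lie on chromosome V, W01C9.1 and 2L52.1 on chromosome II and kpc-1 on chromosome I.

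The arrays were of similar brightness, with median signals per array of 1322 to 1984 in Cy5 and 687 to 1586 in Cy3, and 45.7 to 61.6% of the spots of an array had the lowest quality grade. Danube replicate 2 and Rhine replicate 1 had the widest spread of log2 ratios (SD 1.11 and 1.16, against 0.55 to 0.93 on the other 13 arrays). The sample labels name no slide series. The header of each array gives a number after the Cy3 dye name, which was read here as a slide number and split at a cutoff set here. By that split Danube replicates 1 to 4 lay in a slide series of their own, and Danube replicate 5 and all Elbe and Rhine arrays lay in the other. Of 18 markers of muscle, intestine, hypodermis, neurons, germ cells and pharynx, 13 were measured, and rol-6, unc-119, rgef-1, msp-142 and spe-9 were not. None of the 13 differed between Elbe and Rhine, either before or after adjustment.

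F41F3.3, cat-4, W02G9.4 and kpc-1 were higher on Elbe arrays and W01C9.1, F36H9.2 and 2L52.1 were higher on Rhine arrays. For all 7 filtered probes the 5 Elbe and the 5 Rhine log2 ratios did not overlap, which was so for 3.46% of the 5347 probes. The rule selected for exactly this difference, so nothing follows from that count. Ranked by the strength of the Elbe minus Rhine difference, the members held places 1, 2, 6, 11, 15, 25 and 54 in the order in which they are listed above. Of the first 54 probes, 9 were higher in Elbe and 45 in Rhine, and 47 were no members. That split rests on the scaling. Over all probes with an unadjusted p under 0.05, 134 were higher and 437 lower in Elbe, against 69 and 684 with median centring and 265 and 206 with Cy5 alone. The deposited value table held 643 higher and 684 lower. With limma and adjustment over all probes, 0% of the 5347 probes passed at an adjusted p of 0.05 and 10.7% had an unadjusted p under 0.05. The median probe differed by -0.17 on the log2 scale between Elbe and Rhine, and relative to it the members differed by 3.16 (F41F3.3), 1.45 (cat-4), 3.69 (W02G9.4), -1.46 (W01C9.1), -0.79 (F36H9.2), -1.44 (2L52.1) and 1.07 (kpc-1).

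**Figure D1:**
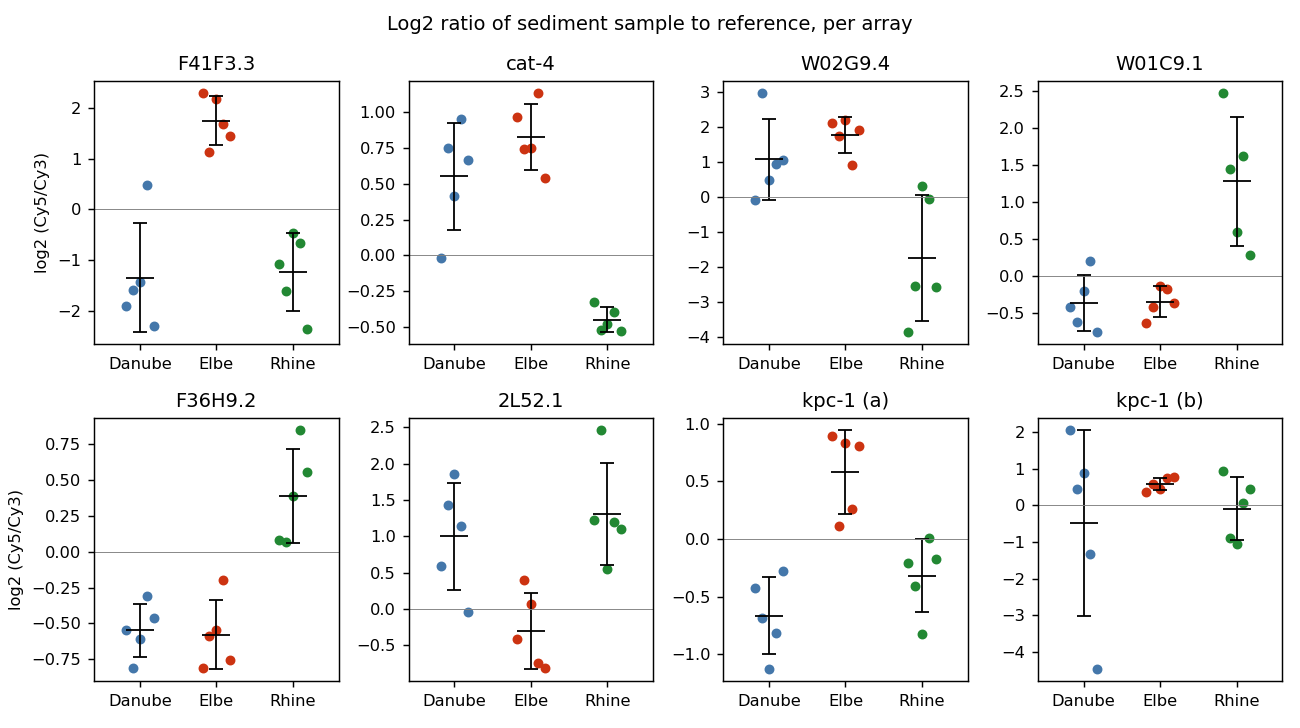
Log2(Cy5/Cy3) of the 8 probes (vertical axis) on the 5 Danube, 5 Elbe and 5 Rhine arrays (horizontal axis), with points for arrays and bars for the mean and SD. For F41F3.3 the Elbe arrays lie between 1.14 and 2.30 and the Rhine arrays between -2.37 and -0.47, whereas for the second kpc-1 probe the arrays of both rivers share a range.

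F41F3.3 held the first place of the ranking. Its log2 ratios on Elbe replicates 1 to 5 were 2.30, 1.14, 2.18, 1.70 and 1.45. On the Rhine replicates they were -1.07, -1.62, -0.47, -0.66 and -2.37. On the Danube replicates they were -1.91, -1.59, -1.43, 0.48 and -2.30. Every Elbe array was thus above every array of the other rivers, and Danube replicate 4 stood above the other 4 Danube arrays. The mean was 1.76 ± 0.49 in Elbe, -1.24 ± 0.77 in Rhine and -1.35 ± 1.08 in Danube (SD, n = 5 each), and the last 2 means differed by less than their spread. Elbe exceeded Rhine by 2.99 on the log2 scale (SE 0.48), or 7.96-fold. Its spots were above the lowest quality grade on 11 of 15 arrays, 5 of them Elbe, 3 Danube and 3 Rhine.

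The Cy5 signals of F41F3.3 spanned 3173 to 11824 on Elbe arrays, with a median of 8375, and 816 to 9941 on Rhine arrays, with a median of 1641. Rhine replicate 4 and Danube replicate 4, with Cy5 signals of 9941 and 12518, were also the arrays with the highest Cy3 signals, 6823 and 5825. The remaining Cy3 signals lay between 614 and 3584. On these 2 arrays the sample signal was thus in or above the Elbe range, and the reference spot was bright as well.

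cat-4 separated the rivers with little spread. Elbe replicates 1 to 5 had log2 ratios of 0.97, 0.75, 0.75, 1.14 and 0.54. The Rhine replicates had -0.32, -0.52, -0.48, -0.39 and -0.53. Danube worms gave -0.02, 0.75, 0.42, 0.95 and 0.67. Rhine was the low group, below every array of the other rivers, and Elbe and Danube shared a range. Means were 0.83 ± 0.23 in Elbe, 0.55 ± 0.37 in Danube and -0.45 ± 0.09 in Rhine (SD, n = 5 each). Elbe exceeded Rhine by 1.28 (SE 0.22) on the log2 scale, or 2.42-fold. The within-group SD was 0.26, and 3.72% of the probes had a smaller one. All 15 spots were above the lowest grade. In Cy5 the medians were 17027 in Elbe, 8115 in Danube and 6707 in Rhine, and in Cy3 they were 5208, 4479 and 4208.

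W02G9.4 showed the widest difference and the widest spread of the members. The log2 ratios of the Elbe replicates were 2.11, 1.75, 2.19, 0.90 and 1.90. Those of the Rhine replicates were -3.86, -2.56, 0.31, -0.07 and -2.57. Danube replicates ranged more than those of Elbe but less than those of Rhine, with -0.08, 2.97, 0.49, 0.95 and 1.04. Rhine arrays fell into 2 near 0 and 3 far below it, and the Danube range overlapped both other groups. Elbe had a mean of 1.77 ± 0.52, Danube of 1.07 ± 1.15 and Rhine of -1.75 ± 1.79 (SD, n = 5 each). The Elbe minus Rhine difference was 3.52 (SE 0.72) on the log2 scale, or 11.5-fold, with a within-group SD of 1.27 that was at or above that of 95.3% of the probes. Rhine replicates 3 and 5 had spots of the lowest grade.

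In the signals of W02G9.4 the rivers differed in both channels. Cy5 ranged from 4034 to 5210.1 on Elbe arrays and from 316 to 4122 on Rhine arrays. Cy3 ranged from 506 to 939 on Elbe arrays and from 1370 to 7111 on Rhine arrays. The reference channel, which held the same kind of RNA on all arrays, thus did not overlap between the rivers, whereas the sample channel overlapped slightly.

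W01C9.1 was higher in Rhine worms by its ratio. Its Rhine replicates had log2 ratios of 2.48, 1.45, 0.59, 1.62 and 0.28. The Elbe replicates had -0.64, -0.42, -0.14, -0.17 and -0.36. Danube replicates lay at -0.43, -0.62, -0.20, 0.20 and -0.76. All 10 arrays of Elbe and Danube lay below the 5 Rhine arrays, and these 2 rivers differed by less than their spread. The means were 1.28 ± 0.87 in Rhine, -0.35 ± 0.20 in Elbe and -0.36 ± 0.38 in Danube (SD, n = 5 each), and Rhine was 3.10-fold above Elbe (log2 difference of Elbe minus Rhine -1.63, SE 0.35). All 15 spots were above the lowest grade, but those on Rhine arrays had a low confidence of 0.07 to 0.12. The Cy5 signals overlapped, at 2031 to 2684 in Elbe and 1795 to 5923 in Rhine. The Cy3 signals were 1223.1 to 2411 in Elbe and 620 to 1223.4 in Rhine, so on this gene the reference was dim on the arrays with the high ratios.

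F36H9.2 followed W01C9.1 in the order of the rivers, with smaller differences. Log2 ratios of 0.08, 0.06, 0.38, 0.85 and 0.55 were measured on the Rhine arrays. Elbe arrays gave -0.81, -0.58, -0.54, -0.20 and -0.75. Danube arrays gave -0.55, -0.81, -0.61, -0.31 and -0.46. The 5 Rhine arrays were above 0 and the other 10 below it. The Rhine mean of 0.39 ± 0.33 was 1.95-fold above the Elbe mean of -0.58 ± 0.24, and the Danube mean was -0.55 ± 0.18 (SD, n = 5 each), which Elbe matched within its spread. The Elbe minus Rhine difference was -0.96 (SE 0.22), and the within-group SD of 0.26 was near that of cat-4. Its Cy5 signals were 1898 to 3092 in Elbe and 1868 to 6526 in Rhine, and its Cy3 signals were 1580.2 to 2713 and 973 to 1755.

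2L52.1 was lowest in Elbe worms. On the Elbe replicates the log2 ratios were -0.42, 0.40, 0.06, -0.74 and -0.82. On those of the Rhine they were 1.23, 2.47, 0.56, 1.20 and 1.11. Those of the Danube were 0.60, 1.43, 1.86, 1.14 and -0.03. Elbe lay below Rhine on all arrays, and the Danube arrays were in the Rhine range except for replicate 5, which lay among the Elbe arrays. Means were 1.31 ± 0.70 in Rhine, 1.00 ± 0.74 in Danube and -0.30 ± 0.52 in Elbe (SD, n = 5 each), and Rhine was 3.06-fold above Elbe (Elbe minus Rhine -1.61, SE 0.40). Cy5 signals had medians of 9845 in Rhine, 4913 in Danube and 1998 in Elbe, and Elbe replicate 2, at 6900.4, reached into the Rhine range of 6749 to 26886. The Cy3 medians, 1937, 2369 and 1650.3, were close together.

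kpc-1 was measured by its probe F11A6.1a. Elbe replicates had log2 ratios of 0.89, 0.11, 0.83, 0.26 and 0.81. Rhine replicates had -0.20, -0.41, -0.82, 0.01 and -0.18. Danube replicates had -0.43, -0.69, -1.13, -0.81 and -0.27. The Elbe arrays were all above 0 and above all other arrays, and Rhine and Danube shared a range. The means were 0.58 ± 0.37 in Elbe, -0.32 ± 0.32 in Rhine and -0.67 ± 0.33 in Danube (SD, n = 5 each), so that Elbe was 1.87-fold above Rhine (log2 difference 0.90, SE 0.25). Elbe Cy5 signals of 4016 to 9899 compared with 2218 to 11888 in Rhine, where replicate 2 was the highest and the next was at 4245. That array also had a Cy3 signal of 7153, against 1473 to 2449 on the other Rhine arrays.

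The second kpc-1 probe, F11A6.1b, did not separate the rivers. Elbe arrays had log2 ratios of 0.37 to 0.77 and Rhine arrays of -1.06 to 0.94, and 5 of its 15 spots were above the lowest grade. In a fit over all 19084 probes its Elbe minus Rhine difference was 0.68 with an SE of 0.91. Over the 15 arrays the log2 ratios of both kpc-1 probes had a Pearson r of 0.20. The probes thus did not follow each other closely, and the low confidence of the F11A6.1b spots limits what it shows of this gene.

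The split of the Elbe minus Rhine difference between the channels set the members apart from each other. Each channel was taken after normalization relative to the median probe of its array, so that the ratio difference equals the Cy5 difference minus the Cy3 difference minus 0.19. In cat-4, 2L52.1 and kpc-1 nearly all of the difference lay in the sample channel. Their Cy5 differences were 1.52, -1.77 and 0.88, and their Cy3 differences were 0.05, -0.35 and -0.20, against a median size over all probes of 0.31 in Cy5 and 0.30 in Cy3.

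In W01C9.1 the reference channel held the larger part. The Cy3 signal was 1.10 higher in Elbe than in Rhine on the log2 scale, while Cy5 was 0.35 lower. F36H9.2 was divided more evenly, with 0.44 in Cy3 and -0.34 in Cy5, both near the sizes common among all probes. A Cy5 difference at least as large as theirs was found in 44.2 and 45.9% of the probes.

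F41F3.3 and W02G9.4 differed in both channels and in opposite directions. F41F3.3 had 2.00 in Cy5 and -1.18 in Cy3, and W02G9.4 had 1.65 in Cy5 and -2.06 in Cy3. Cy5 differences of this size or more occurred in 0.411 and 1.07% of the probes and Cy3 differences in 3.22 and 0.337%.

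In the sample channel alone, cat-4 was the only member whose Elbe and Rhine arrays did not overlap, which held for 2.54% of the probes. In the reference channel W02G9.4 and W01C9.1 did not overlap, against 1.42% of the probes. Why the reference differed between arrays of different rivers was not tested.

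**Figure D2:**
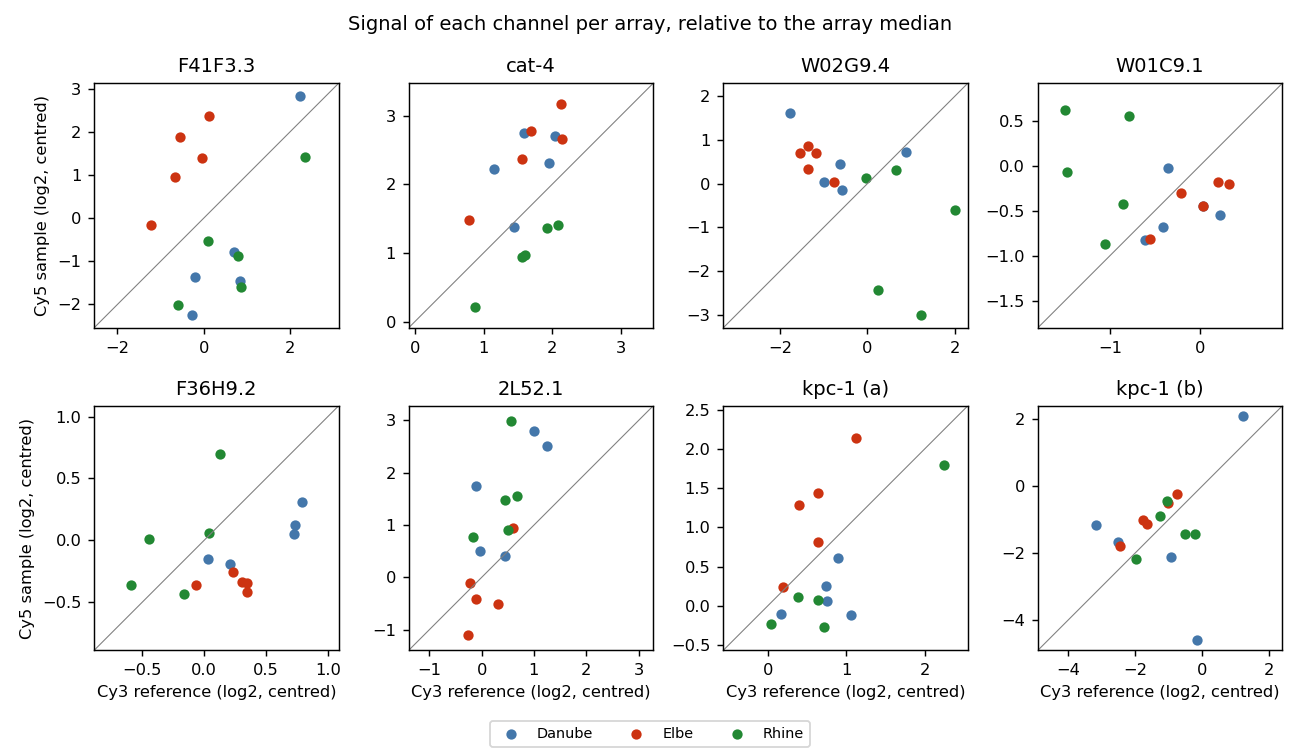
Log2 signal of the exposed worms in Cy5 (vertical axis) against that of the reference in Cy3 (horizontal axis), each relative to the array median, with a point for each of the 15 arrays and the line of equal values. In the cat-4 panel the Rhine arrays lie below the others at like Cy3 values, whereas in the W01C9.1 panel they lie to the left and overlap the others in Cy5.

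**Figure D3:**
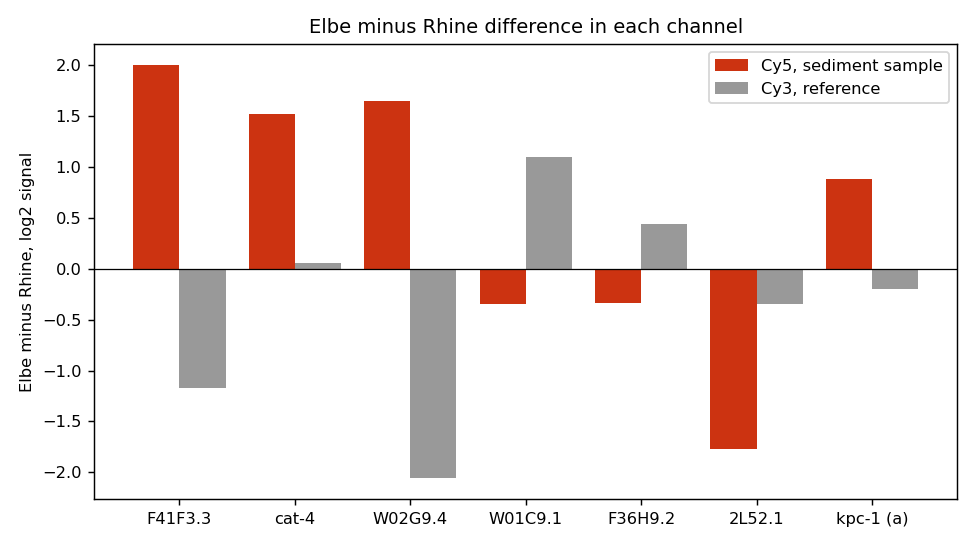
Elbe minus Rhine difference of the mean log2 signal (vertical axis) in Cy5 and in Cy3 for the 7 filtered probes (horizontal axis). The Cy3 bar is longer than the Cy5 bar in W02G9.4 (-2.06 against 1.65), W01C9.1 (1.10 against -0.35) and F36H9.2 (0.44 against -0.34).

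The value table that the authors deposited, whose values for these genes follow the Cy5 signal and are relative to each gene's median, gave the same directions for the 6 genes that could be matched to a row. On the log2 scale its Elbe minus Rhine differences were 1.68 for cat-4, 1.74 for W02G9.4 and 0.97 for kpc-1. They were -1.69 for 2L52.1, and -0.24 for both W01C9.1 and F36H9.2. In the 3 last-named genes and in W02G9.4 and kpc-1 the Elbe and Rhine arrays overlapped, and only cat-4 kept them apart. How often arrays do not overlap over all genes of that table was not computed, so nothing follows from that count. The table rests on the same arrays, so it is no independent measurement.

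The log2 ratios of Danube worms placed the difference of each gene in Elbe or in Rhine. Danube replicates 1 to 4 lay in a slide series without Elbe or Rhine arrays, so for them river and series cannot be told apart. F41F3.3 and kpc-1 were high in Elbe, with Elbe minus Danube differences of 3.11 (SE 0.48) and 1.25 (SE 0.25) and Rhine minus Danube differences of 0.11 and 0.35 with the same SE. 2L52.1 was low in Elbe, at -1.30 (SE 0.40) from Danube, against 0.31 in Rhine. Danube replicate 5, the only Danube array in the slide series of the other rivers, had -0.03 for 2L52.1. That value was within the Elbe range and below all Rhine arrays, so the placement of 2L52.1 rests on the other slide series. The other 4 genes differed in Rhine by the log2 ratio. cat-4 was 1.00 below Danube in Rhine (SE 0.22) and 0.27 above it in Elbe. W02G9.4 had -2.82 in Rhine and 0.70 in Elbe (SE 0.72). W01C9.1 had 1.65 in Rhine and 0.01 in Elbe (SE 0.35), and F36H9.2 had 0.93 and -0.03 (SE 0.22). Relative to the array median, the Cy5 means of F36H9.2 were 0.03 in Danube, -0.34 in Elbe and -0.004 in Rhine. Its Cy3 means were 0.50, 0.23 and -0.21, so its Rhine minus Danube difference lay in the reference channel. For W01C9.1 the Cy5 means were -0.51, -0.39 and -0.04, and the Cy3 means were -0.22, -0.04 and -1.14.

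Elbe and Danube arrays did not overlap for F41F3.3 and kpc-1, against 1.87% of all probes. Rhine and Danube arrays did not overlap for cat-4, W01C9.1 and F36H9.2, against 2.11%. Both comparisons share the Danube arrays and also use the Elbe or Rhine arrays on which the members were chosen, so their values stand side by side without a test.

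**Figure D4:**
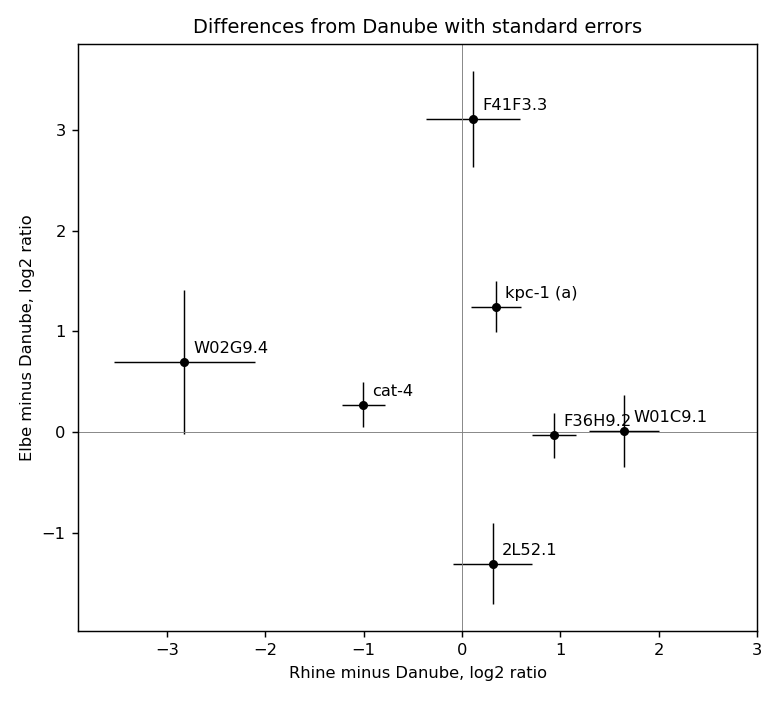
Elbe minus Danube (vertical axis) against Rhine minus Danube (horizontal axis) differences of the log2 ratio for the 7 filtered probes, with standard errors from limma as bars. F41F3.3 (3.11 against 0.11) and kpc-1 (1.25 against 0.35) lie along the vertical axis, and W01C9.1 (0.01 against 1.65) and F36H9.2 (-0.03 against 0.93) along the horizontal axis.

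Danube was also compared with the mean of Elbe and Rhine, a contrast that differs from the one on which the members were chosen but uses the same arrays. In F41F3.3, W01C9.1 and F36H9.2 it was carried by the river that the choice had set apart, Elbe in the first and Rhine in the others. In kpc-1 the larger part also lay in Elbe, which was 1.25 above Danube, against 0.35 in Rhine. With limma, 0 of the 7 members passed at an adjusted p of 0.05, as did 0% of all probes. At an unadjusted p under 0.05 there were 4 members, F41F3.3, kpc-1, W01C9.1 and F36H9.2, against 8.38% of the probes. All 4 were lower in Danube, the direction of 7.05% of the probes, and the median probe was itself 0.16 lower in Danube. With Cy5 alone and in the value table none of these 4 had an unadjusted p under 0.05, and F36H9.2 turned to 0.20 and 0.13. The probes with an unadjusted p under 0.05 split into 71 higher and 377 lower in Danube, and into 208 and 285 with Cy5 alone. The choice may have favoured probes with a small spread between replicates for the size of their difference. This test uses the same spread, so the share of members is not free of the choice. Not all members had a small spread, since the within-group SDs of F41F3.3, W02G9.4 and 2L52.1 were at percentiles 74.4, 95.3 and 58.1 of the probes. With the slide series as a block, which rests on Danube replicate 5 alone for the comparison within a series, F41F3.3 was the 1 member with an unadjusted p under 0.05. Of the 13 measured tissue markers, 4 (myo-2, myo-3, vit-2 and col-19) were also lower in Danube at an unadjusted p under 0.05. Other markers of muscle, pharynx and intestine did not reach that level. Their differences were -0.14 in unc-54, -0.36 in tnt-4, -1.29 in ges-1, 0.14 in vit-6 and 0.34 in elt-2, so the markers of a tissue did not all go the same way. The mean log2 ratio of the 13 ran from -1.93 to -0.03 on Danube arrays, -0.18 to 0.42 on Elbe arrays and -0.37 to 0.16 on Rhine arrays. Without Danube replicate 2 and Rhine replicate 1, 4 members had an unadjusted p under 0.05. The part of the markers in these differences was not tested.

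kpc-1 was 0.80 lower in Danube than in the mean of the other rivers (SE 0.22, adjusted p = 0.441 by limma), and the difference became -0.40 (SE 0.42) with the slide series as a block. F41F3.3 differed by -1.61 (SE 0.41, adjusted p = 0.426), or by -2.56 (SE 0.77) with the block. The Rhine arrays of F41F3.3 shared the Danube range. In W01C9.1 and F36H9.2 the differences were -0.83 (SE 0.31) and -0.45 (SE 0.19), with adjusted p-values by limma of 0.540 and 0.589, and the Elbe arrays shared the Danube range. For cat-4, W02G9.4 and 2L52.1 the differences were 0.36, 1.06 and 0.49, with adjusted p-values of 0.601, 0.627 and 0.668.

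The pathway of cat-4 was followed through 14 genes of tetrahydrobiopterin and amine transmitter synthesis, all of which had a probe. Besides cat-4, 5 of them passed the filter. ptps-1 and pcbd-1, which make and recycle the cofactor, had Elbe minus Rhine log2 differences of 0.28 (SE 0.43) and -0.50 (SE 0.49). For pah-1, the phenylalanine hydroxylase, the difference was -0.61 (SE 0.41). tdc-1, the tyrosine decarboxylase of tyramine synthesis, had -0.25 (SE 0.41) by its measured probe, and mod-5, the serotonin transporter, -0.38 (SE 0.38). Another tdc-1 probe, K01C8.3b, did not pass the filter, with 7 of its spots above the lowest grade. In the fit over all probes it had the opposite sign, at 2.11 (SE 1.21).

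None of these 5 genes passed in Elbe minus Rhine, Elbe minus Danube or Rhine minus Danube, adjusted or not, by limma. The background was 0.0187% of the probes after and 6.32% before adjustment for Elbe minus Danube, and 0% and 12.9% for Rhine minus Danube. Their median Elbe minus Rhine difference was -0.38, against -0.17 for all probes. The hydroxylases cat-2 and tph-1, the reductase qdpr-1, the monooxygenase agmo-1, the hydroxylase tbh-1 and the transporters cat-1 and dat-1 did not pass the filter. bas-1, the aromatic amino acid decarboxylase that follows the hydroxylases, also failed it, with 6 of 15 spots above the lowest grade. In the fit over all probes, the Elbe minus Rhine differences of these 8 genes ran from -1.62 in cat-1 to 0.87 in tph-1, with SEs of 0.33 to 1.05. bas-1 (0.79), tph-1 and dat-1 (0.44) had values above 0, and cat-1, cat-2 (-1.06), tbh-1 (-0.79), qdpr-1 (-0.57) and agmo-1 (-0.44) below it.

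The family and pathway of kpc-1 was followed through 12 genes of proprotein convertases and neuropeptide processing. Of the other 11, 6 genes with 7 probes passed the filter. None passed after adjustment in any pair of rivers, and at an unadjusted p under 0.05 there was 1 of the 7 probes, egl-3 between Elbe and Rhine, where 10.7% of all probes reached that level. This convertase of neuropeptide precursors in neurons, was 0.61 lower in Elbe than in Rhine on the log2 scale (SE 0.22, adjusted p = 0.364 by limma), and its Elbe and Rhine arrays did not overlap, as in 3.46% of all probes.

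The cuticle convertase bli-4 had -0.45 (SE 0.28) and -0.66 (SE 0.40) by its 2 measured probes. Its probes K04F10.4b, K04F10.4c and K04F10.4d did not pass the filter. In the fit over all probes they had the opposite sign, at 0.44 (SE 0.70), 0.58 (SE 0.44) and 0.41 (SE 1.61). The egl-3 probe C51E3.7b also failed the filter, with -0.14 (SE 0.80) in that fit. egl-21, a carboxypeptidase that trims the cut peptides, had -0.19 (SE 0.50). The amidating enzymes pamn-1, pghm-1 and pgal-1 had -0.22, 0.06 and -0.24. The median of the 7 probes was -0.24, against -0.17 for all probes. In Elbe minus Danube, where kpc-1 had 1.25, egl-21, pamn-1 and pghm-1 had 0.45, 0.44 and 0.44 and none passed. aex-5, sbt-1, cpd-1, cpd-2 and nep-1 did not pass the filter.

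**Figure D5:**
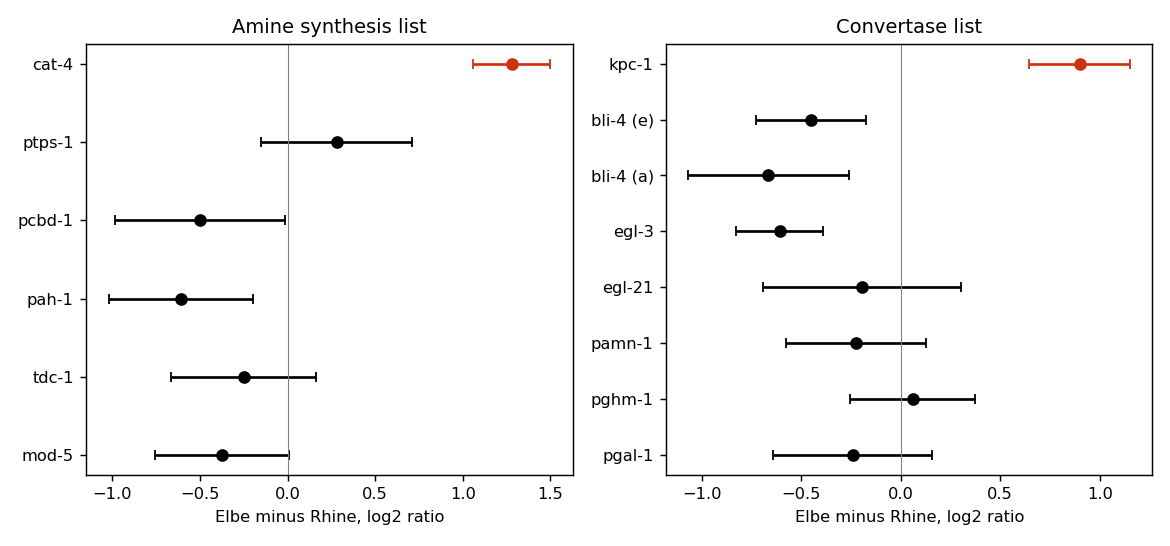
Elbe minus Rhine difference of the log2 ratio (horizontal axis) with its standard error for the measured genes of the amine synthesis list and of the convertase list (vertical axis), members in red. cat-4 (1.28) and kpc-1 (0.90) lie at the right of their panels, and the other measured genes lie between -0.66 and 0.28.

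For each member the named probes most like it were sought by Pearson's r of the log2 ratio over the 15 arrays, among 5072 filtered probes. Part of each r comes from the river means on which the members were chosen, and r after subtraction of the river means is given beside it. 2L52.1 had the closest partners, ttr-12 of the transthyretin-related family (r = 0.938, and 0.857 without river means) and bath-23, a BATH domain gene (0.932 and 0.902). These had Elbe minus Rhine differences of -1.81 (SE 0.46) and -1.86 (SE 0.43).

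F36H9.2 was most like srh-251, a gene of the srh family of chemoreceptors (r = 0.887, and 0.498 without river means), and madf-4 (0.856 and 0.614). W01C9.1 was most like srh-108 of the same receptor family (0.871 and 0.766) and rpl-9, a protein of the large ribosomal subunit (0.862 and 0.771). For W02G9.4 the closest were gyg-1, the glycogenin that primes glycogen synthesis (0.864 and 0.701), and cnc-1, a caenacin antimicrobial peptide gene (0.787 and 0.674). cat-4 was followed by C02E7.7 (0.850 and 0.580) and lys-7, a lysozyme (0.794 and 0.505).

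F41F3.3 had K11H12.7 (0.808 and 0.713) and cysl-2, a cysteine synthase-like gene (0.797 and 0.620), as its closest probes, and kpc-1 had Y119C1B.1 (0.791 and 0.412) and clik-3 (0.764 and 0.450). Across the 7 members, r without river means was thus highest for the partners of 2L52.1 and lowest for those of kpc-1.

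After subtraction of the river means, r between pairs of the 7 filtered probes ran from -0.40 (W02G9.4 and W01C9.1) to 0.48 (F41F3.3 and cat-4). Over the 15 arrays F41F3.3 and kpc-1, both high in Elbe, had an r of 0.71 with and -0.16 without the river means. cat-4 and W02G9.4, both low in Rhine, had 0.78 and 0.17. W01C9.1 and F36H9.2, both high in Rhine, had 0.73 and -0.07.

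The genes next to the members on their chromosomes were examined as well. Of 13 neighbouring protein-coding genes with a probe, 0 had Elbe and Rhine arrays that did not overlap. The share over the 5347 filtered probes was 3.46%, so a count of 0 among so few genes says little. Only col-139 beside F41F3.3 and col-152 and vps-54 beside cat-4 passed the filter, with Elbe minus Rhine differences of 0.04 (SE 0.42), -0.51 (SE 0.25) and 0.00 (SE 0.25).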

How the data were processed

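Spot signals of 15 2-colour arrays were deposited by the authors as linear intensity values of both channels from BlueFuse 3.4, without normalization, with a confidence score from the authors' image software for each spot. The authors also deposited a table of linear ratio values relative to each gene's median, after print-tip Lowess and median polishing per chip and gene.

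Here log2(Cy5/Cy3) was computed and normalized by print-tip loess over 48 blocks (span 0.3), with 2370 control or empty spots at weight 0, in limma 3.58.1 under R 4.3.3. Spots of a probe were averaged. A probe was kept if its spot was above the lowest grade (confidence over 0.05) on at least 3 of 5 arrays of each river, which kept 5347 of 19084. Sequence names were matched to RefSeq symbols (WBcel235) for 18089 probes. limma's lmFit and eBayes were fitted over all 15 arrays with Benjamini-Hochberg adjustment over the kept probes. All p-values named limma come from this fit, which was tested on simulated data. For channel values, the array median over kept probes was subtracted. Value table rows were matched by correlation (1 minus r under 0.001), and F41F3.3 matched none. Dye orientation was the same on all arrays, so dye bias of a probe does not differ between rivers by design. The number of arrays limits precision.

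The members and the gene lists were chosen with earlier results of these data known. Named were all members, all genes of the lists, the 2 probes most like each member and the neighbouring genes. The alternatives were other normalizations, spot filters, array weights, Cy5 alone, the value table, slide series and replicate number as blocks, the Elbe and Rhine arrays alone, and each array left out. 2 further alternatives, lowest-grade spots as missing and the data without the widest arrays, were added after the data had been seen. A search for similar proteins was not run. A planned exact permutation of the Danube labels is not reported, since the choice set Elbe and Rhine apart and the arrays are then not exchangeable.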

Additional observations from a re-analysis of the deposited data

Results flagged for a closer look

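For the 8 probes in the 3 rivers, 24 groups of 5 arrays were examined for an array that stood far from the rest by Dixon's gap (over 0.71 of the range), and 0 were found.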

How the results depend on the processing

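In none of the alternatives run did the Elbe minus Rhine direction of a member turn. For many of them this was fixed beforehand. Other spot filters, the blocks and a left-out Danube array do not change that difference. Leaving out an Elbe or Rhine array cannot turn it where the arrays do not overlap. Of 395 values for single members in both comparisons, 390 kept their direction. The 5 that turned concerned Danube against the mean of Elbe and Rhine. With median centring in place of loess, 2L52.1 went from 0.49 to -0.15 and cat-4 from 0.36 to -0.14, while the median probe moved from -0.16 to -0.53, and relative to that median both genes stayed above 0 (0.39 each). With the slide series as a block 2L52.1 had -0.54. That fit compares within a series through Danube replicate 5 alone, which had a log2 ratio of -0.03 for 2L52.1. F36H9.2 went from -0.45 to 0.20 with Cy5 alone and to 0.13 in the value table, neither of which divides by the reference. With Cy5 alone Elbe minus Rhine shrank to -0.35 in W01C9.1, -0.34 in F36H9.2, 2.00 in F41F3.3 and 1.65 in W02G9.4. In the value table it was 1.74 in W02G9.4 and -0.24 in both W01C9.1 and F36H9.2. With median centring, where the median probe had -0.53, it shrank to 0.32 in kpc-1 and 0.84 in cat-4. It grew to -2.57 in 2L52.1 and -1.26 in F36H9.2 with median centring, and to 1.68 in cat-4 in the value table.

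Against 4 members with an unadjusted p under 0.05 for Danube, there was 1 with a confidence of at least 0.5 (cat-4, the only member that this filter kept), 1 with Cy5 alone (2L52.1), 0 in the value table and 1 (F41F3.3) with slide series as a block. In that comparison probes past an adjusted p of 0.05 numbered 0, but 5 where all 15 spots had to be above the lowest grade and 1 with a confidence of at least 0.5. With median centring its probes with an unadjusted p under 0.05 split into 44 higher and 923 lower.

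Over all probes 0 passed an adjusted p of 0.05 between Elbe and Rhine by limma, with 571 at an unadjusted p under 0.05. The adjusted count was 1 with a single loess curve per array, 4 with median centring, 14 with all 15 spots above the lowest grade, 6 with a confidence of at least 0.5, 8 with array weights, 3 with Cy5 alone and 2 on the Elbe and Rhine arrays only. It ranged from 0 to 5 with an array left out, with 5 without Danube replicate 2, 3 without Elbe replicate 2 or Rhine replicate 3, 2 without Danube replicate 1 and 1 without Danube replicate 4. The replicate block gave 1, and changed no count for Danube. Equal replicate numbers did not pair the samples, since the deviations of the 15 same-numbered pairs correlated at -0.04 to 0.13 and only 2 pairs exceeded 0.1.

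Low spot confidence limits F41F3.3, W02G9.4 and F11A6.1b, and also W01C9.1 on Rhine arrays, where it was 0.07 to 0.12. With lowest-grade spots as missing, Elbe minus Rhine grew to 3.93 in W02G9.4.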
